A study of Mus musculus with 7 samples.

Results

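Zscan4c, Zscan4d, Zscan4f, Tcstv1, Tcstv3 and Zfp352 are genes that the mouse embryo transcribes in a burst at the two-cell stage, when its own genome is first switched on, and then silences. They were chosen by name, and all 6 were found by Ensembl ID among the 52636 genes of the count table. The zinc finger proteins of the Zscan4 family are known for their role in telomere maintenance, and a small share of cultured embryonic stem cells expresses them for a short time. Tcstv1 and Tcstv3 belong to a family of two-cell transcripts that is also linked to telomeres in stem cells, and Zfp352 encodes another zinc finger protein. The factor Dux can switch on transcription of such genes, and chromatin repressors hold it down later.

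RNA was sequenced from 7 libraries, each a pool of 10 inner cell masses (ICMs) of mouse embryos with the genotype Sox2Cre;CRAFR26, which carry a cRAF construct that activates ERK in response to 4-hydroxytamoxifen (tamoxifen below). All embryos were flushed on embryonic day 2.5 and kept for 24 h in medium that held the FGF receptor inhibitor PD173074 at 250 nM, so this inhibitor was also present in the controls. The vehicle group (time label 0 h) received ethanol for 4 h and held 3 libraries, clone4_1, clone4_2 and clone8_1. The tamoxifen group received 250 nM tamoxifen for 4 h and held 4 libraries, clone4_1, clone4_2, clone8_1 and clone8_2. The names refer to 2 clones, 4 and 8, of stem cells that carry the construct and were injected into morulas to make the mice, and the fourth vehicle library was discarded by the submitters in quality control. The labels call the samples E3.5 epiblast, and the trophectoderm had been removed by immunosurgery. Sox2Cre is known to be active in the epiblast; the labels do not say what the Cre removes here. Nothing in the labels says how the pools relate to separate matings, so p-values measure the spread between these pools.

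Total counts ranged from 22981498 to 42294719 per library. The sum over 10 naive epiblast markers was 1665 to 2044 CPM (a gene's counts relative to the library's total, scaled by TMM factors) in vehicle and 1708 to 2199 CPM in tamoxifen libraries, and the sum over 10 primitive endoderm markers was 845 to 1148 CPM and 884 to 1031 CPM. Trophectoderm markers were also present. Their sum over 10 genes was 8530 to 11228 CPM in vehicle and 6546 to 9534 CPM in tamoxifen libraries. The keratin genes Krt8 and Krt18 made up most of it. Krt8 had a mean of 3176 CPM in vehicle and 2562 CPM in tamoxifen libraries, and Krt18 had 3320 and 2799 CPM. The sums of the marker lists therefore do not measure how much RNA each cell type gave. Vehicle clone8_1 stood apart in short transcripts: over 529 protein-coding genes with a longest transcript of 600 to under 1000 nt, the median gene lay 1.57 log2 units under the median library there (-1.57), while the other libraries lay between -0.058 and 0.26.

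Most of the 6 genes have close copies, which decides whether a read can be assigned to one of them. On GRCm38, Zscan4c lies on chromosome 7 at 11005745 to 11010547 (plus strand), Zscan4d at 11161374 to 11166159 (minus strand) and Zscan4f at 11397915 to 11402318 (plus strand). The coding sequences of the Zscan4 genes are each 1521 nt long and can be aligned without a gap. Zscan4c and Zscan4f differed at 6 bases (99.6% identity), and Zscan4d differed from either at 35 bases (97.7%). The gapless 120-base coding stretch in which Zscan4d and Zscan4f together had the most differences from Zscan4c follows (coding bases 1001 to 1120 in each, 5′ to 3′, GENCODE M21), with capitals where a copy differs from Zscan4c. Zscan4d had 8 differences in it and Zscan4f had 3.
Zscan4c: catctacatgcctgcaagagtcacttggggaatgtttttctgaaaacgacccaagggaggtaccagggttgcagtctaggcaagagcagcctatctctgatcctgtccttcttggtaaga
Zscan4d: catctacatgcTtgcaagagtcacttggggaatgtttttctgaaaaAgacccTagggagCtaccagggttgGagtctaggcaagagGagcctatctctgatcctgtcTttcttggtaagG
Zscan4f: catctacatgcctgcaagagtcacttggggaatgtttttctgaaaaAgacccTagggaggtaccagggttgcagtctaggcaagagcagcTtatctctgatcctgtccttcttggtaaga

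Tcstv1 lies on chromosome 13 at 119893388 to 119894785 (minus strand) and Tcstv3 on the same chromosome at 120316878 to 120318178 (plus strand). Their coding sequences, of 516 and 510 nt, shared 94.7% of 510 aligned bases. The 120-base coding stretch with the most differences (coding bases 338 to 457 in each) is shown with capitals where Tcstv3 differs from Tcstv1, at 13 bases. Over the whole coding sequence the pair had 27 mismatches and 6 gap bases.
Tcstv1: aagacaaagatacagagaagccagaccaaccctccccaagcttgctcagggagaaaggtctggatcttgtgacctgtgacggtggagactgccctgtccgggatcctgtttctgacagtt
Tcstv3: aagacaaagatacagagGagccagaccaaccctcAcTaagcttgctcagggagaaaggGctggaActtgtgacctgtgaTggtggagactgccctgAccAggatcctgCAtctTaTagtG

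How far each gene can be told from its copies was measured on the annotated mouse transcripts. Of all 100-nt stretches of Zscan4c, 27.2% occurred in no transcript of another gene, and the value was 19.4% for Zscan4f and 70.4% for Zscan4d. For 50-nt stretches the values were 14.5%, 13.2% and 50.4%. Tcstv1 and Tcstv3 were more distinct at either length, with 96.4% and 92.2% of 100-nt stretches unique. For 50-nt stretches the values were 85.0% for Tcstv1 and 68.6% for Tcstv3. Zfp352, on chromosome 4 at 90218820 to 90225702 (plus strand), was unique in 99.4% of its 100-nt and 92.9% of its 50-nt stretches. The read length and the treatment of reads that map to several places are not given in the sources used here, so a count of 0 means little for Zscan4c and Zscan4f taken alone and more for Zfp352 and Zscan4d. None of the 6 genes overlaps another annotated gene on either strand.

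**Figure D1:**
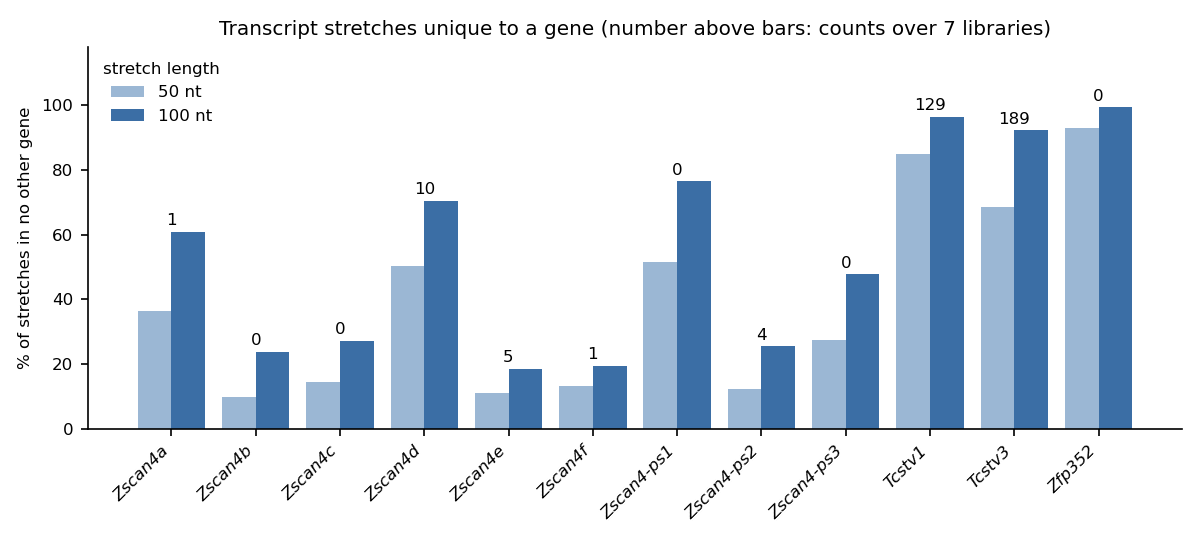
Share of the 50-nt and 100-nt stretches of each gene's annotated transcripts that occur in no transcript of another gene (y axis, percent), for the 9 annotated genes of the Zscan4 cluster, Tcstv1, Tcstv3 and Zfp352; the number above each pair of bars is the gene's raw count over all 7 libraries. Zfp352 is almost entirely unique and has 0 counts, whereas Tcstv3, unique in 92.2% of its 100-nt stretches, has 189.

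The zinc finger genes had few or no counts at this stage, and the Tcstv genes had more. Zfp352 and Zscan4c had 0 counts in each of the 7 libraries, out of 247888494 counts in all. At 3 counts, the limit that a count of 0 allows is 0.0121 CPM over all libraries and 0.071 to 0.129 CPM in a single library. This limit covers counting error only. Having no count was common: 4755 of 21896 protein-coding genes (21.7%) had 0 counts in all libraries.

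Zscan4f had a single count, in tamoxifen clone4_2. Zscan4d had 0, 0 and 1 counts in vehicle clone4_1, clone4_2 and clone8_1, and 1, 0, 0 and 8 counts in tamoxifen clone4_1, clone4_2, clone8_1 and clone8_2. Its 8 counts in tamoxifen clone8_2 are 0.194 CPM and the only value of these 3 Zscan4 genes above the limit of 3 counts. Both groups otherwise lay at or under that limit, so no fold change is given, and fewer cells with the transcript cannot be told apart from less transcript per cell in pools of this kind.

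Summing the copies, which removes any doubt about how reads were divided among them, left the genes named Zscan4 near 0. Zscan4c, Zscan4d and Zscan4f together had 11 counts over all libraries (0.0444 CPM). With the other 6 annotated genes of the cluster added (Zscan4a, Zscan4b, Zscan4e and the copies Zscan4-ps1, Zscan4-ps2 and Zscan4-ps3), the sum was 5, 0 and 5 counts in vehicle clone4_1, clone4_2 and clone8_1. In tamoxifen clone4_1, clone4_2, clone8_1 and clone8_2 it was 1, 1, 0 and 9 counts. Most of the 21 counts were 5 from Zscan4e in vehicle clone4_1, 4 from Zscan4-ps2 in vehicle clone8_1 and 8 from Zscan4d in tamoxifen clone8_2. Reads that were dropped because they fit several copies equally well would not be in these sums. The pluripotency gene Nanog, for scale, had 578 ± 140.2 CPM in vehicle pools (SD, n = 3) against 518 ± 90.9 CPM after tamoxifen (SD, n = 4).

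**Figure D2:**
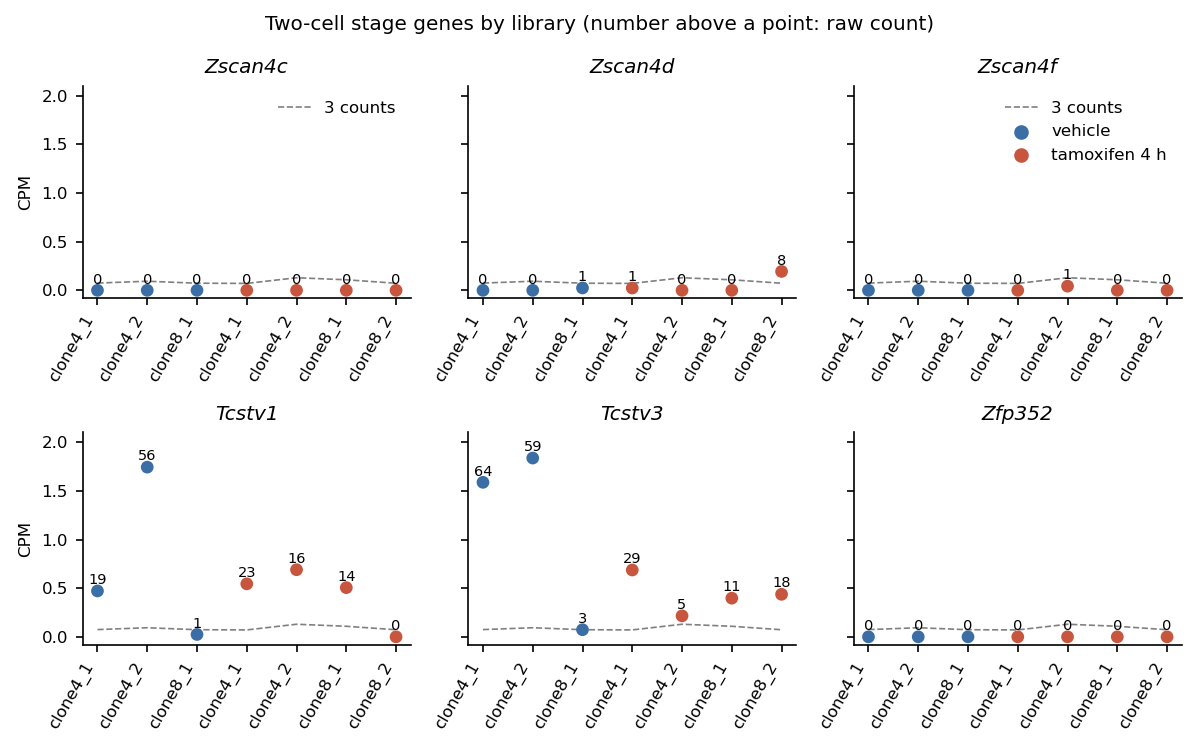
CPM (y axis, TMM-scaled) of the 6 genes in the 3 vehicle (blue) and 4 tamoxifen (red) libraries, with the raw count above each point and a dashed line at 3 counts. Zscan4c and Zfp352 are at 0 throughout, Zscan4d passes the line in tamoxifen clone8_2 only, Tcstv3 is highest in both vehicle libraries of clone 4, and Tcstv1 is highest in vehicle clone4_2.

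Residual Tcstv transcript was found in most libraries. Tcstv3 had 64, 59 and 3 counts in vehicle clone4_1, clone4_2 and clone8_1, or 1.59, 1.84 and 0.0731 CPM. In tamoxifen clone4_1, clone4_2, clone8_1 and clone8_2 it had 29, 5, 11 and 18 counts, or 0.687, 0.216, 0.397 and 0.437 CPM. Both vehicle libraries of clone 4 were above every tamoxifen library, and vehicle clone8_1 was below every one, so the groups overlapped.

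The Tcstv3 mean was 1.17 ± 0.955 CPM in vehicle pools (SD, n = 3) against 0.434 ± 0.194 CPM after tamoxifen (SD, n = 4). On the log2 scale, tamoxifen minus vehicle came to -1.40 ± 0.93 (SE). By the quasi-likelihood test of edgeR, p was 0.164 unadjusted and 0.803 after Benjamini-Hochberg adjustment. The difference was therefore not larger than the spread between libraries. Over the 15 alternatives that gave a value, the adjusted p ranged from 0.636 to 0.961. These include the fit with both Tcstv genes summed, which is not a value of Tcstv3 alone. Without vehicle clone8_1 the log2 fold change was -1.97 ± 0.67 (SE; unadjusted p = 0.0158, adjusted p = 0.746, edgeR), and it was -0.66 ± 1.19 (SE) with clone as a term in the model. The longest Tcstv3 transcript has 779 nt, the length class in which vehicle clone8_1 was low; its part in the value was not tested.

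Tcstv1 had 19, 56 and 1 counts in vehicle clone4_1, clone4_2 and clone8_1, or 0.471, 1.74 and 0.0244 CPM. In tamoxifen clone4_1, clone4_2, clone8_1 and clone8_2 it had 23, 16, 14 and 0 counts, or 0.545, 0.69, 0.506 and 0 CPM. One vehicle library was high, another was close to the tamoxifen libraries, and each group held a library at or under the limit of 3 counts. The longest annotated transcript of Tcstv1 has 1280 nt and the other has 875 nt. Among 1000 protein-coding genes of 1000 to under 1500 nt, vehicle clone8_1 deviated by -0.27 on the log2 scale.

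The Tcstv1 mean was 0.747 ± 0.892 CPM in vehicle pools (SD, n = 3) against 0.435 ± 0.301 CPM after tamoxifen (SD, n = 4), which is -0.78 ± 1.34 (SE) on the log2 scale (unadjusted p = 0.574, adjusted p = 0.904, edgeR). The direction rested on vehicle clone4_2: without it the vehicle mean was 0.248 CPM and the log2 fold change was 0.79 ± 1.63 (SE). With clone as a term in the model it was 0.22 ± 1.45 (SE). No direction can thus be given for Tcstv1. With both Tcstv genes summed before the fit, the log2 fold change was -1.13 ± 0.89 (SE; adjusted p = 0.813, edgeR). The sum was 83, 115 and 4 counts in the vehicle and 52, 21, 25 and 18 counts in the tamoxifen libraries, in the order above.

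**Figure D3:**
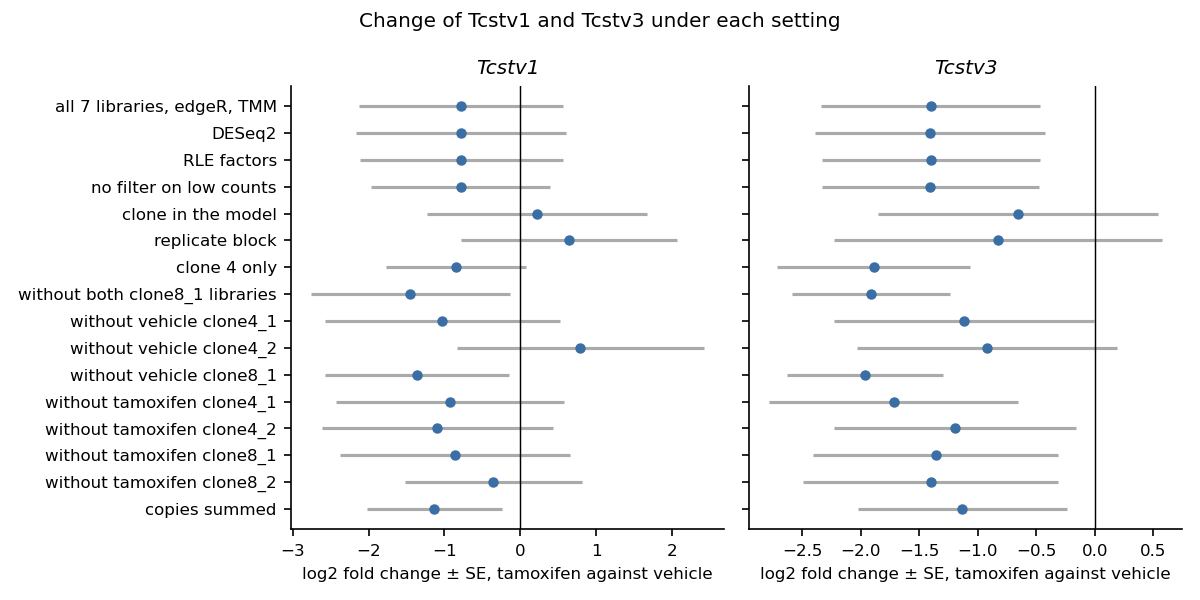
Log2 fold change with its SE (x axis, tamoxifen against vehicle) of Tcstv1 and Tcstv3 in the fit on all 7 libraries and in 15 alternatives (y axis). The point for summed copies is the fit of both genes together and is the same in both panels. Tcstv3 lies below 0 in each, from -1.97 to -0.66, and Tcstv1 crosses 0, from -1.45 to 0.79.

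Scaled to the length of the longest transcript, Tcstv3 stood at 1.50 ± 1.23 CPM per kilobase in vehicle pools (SD, n = 3) against 0.557 ± 0.249 after tamoxifen (SD, n = 4). Tcstv1 stood at 0.583 ± 0.697 and 0.34 ± 0.235 CPM per kilobase. Tcstv3 and Tcstv1 were thus the highest of the 6 genes and did not differ beyond their spread. Below them Zscan4d had 10 counts and Zscan4f had 1 over all libraries, too few for an order among the Zscan4 genes and Zfp352. On the same scale Nanog had 262 ± 63.4 and 234 ± 41.1 CPM per kilobase. Of the protein-coding genes, 47.0% had a lower total count than Tcstv3 and 44.9% a lower one than Tcstv1.

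Only Tcstv1 and Tcstv3 passed the filter on low counts and were tested; the Zscan4 genes and Zfp352 did not pass. Of the tested 2, 0 were called at an adjusted p under 0.05, where 0% of all 16248 tested genes were called, and 0 had an unadjusted p under 0.05, where 5.97% of all tested genes did (970 genes, edgeR). DESeq2 called 4 genes in the whole table and neither Tcstv gene.

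Genes outside the lists were ranked by how closely their log2 CPM followed each Tcstv gene over the 7 libraries, among 11700 genes whose mean count was 50 or more. Tuba1a (Pearson r = 0.974), Ddah2 (r = 0.971) and Arl13b (r = 0.965) were most like Tcstv1, and Gsta4 (r = 0.970), Spag7 (r = 0.969) and Perp (r = 0.964) were most like Tcstv3. These values describe 7 points in which both genes share library and depth, and they are the highest of 11700 per Tcstv gene. The longest transcript of Gsta4 has 977 nt, so it shares with Tcstv3 the length class in which vehicle clone8_1 was low. Those of Spag7 (1159 nt) and Perp (1952 nt) are longer. The part of transcript length in these r values was not tested. Gsta4, a glutathione transferase, had 279 ± 144 CPM in vehicle pools (SD, n = 3) against 215 ± 21.7 CPM after tamoxifen (SD, n = 4).

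Other genes of the two-cell stage were examined in a list of 44, of which 41 were in the table, 8 had 0 counts in all libraries and 21 were tested. Duxf3, which encodes Dux, had 0 counts in every library, with 75.8% of its 100-nt and 52.95% of its 50-nt stretches unique. Of the tested genes, 0 were called at an adjusted p under 0.05 by edgeR or by DESeq2, and 2 had an unadjusted p under 0.05, both lower (of all tested genes, 3.28% were lower and 2.69% higher at that p). Their median log2 fold change was -0.56, against 0.019 for all tested genes, and 14 of 21 were below 0, against 48.3% of all tested genes. This list and those below were chosen with earlier results of these data known. Their medians and shares beside the background are thus descriptive and no test of a list.

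Obox6, a homeobox gene of the preimplantation embryo, had 33.4, 17.4 and 35.5 CPM in vehicle and 15.1, 9.96, 4.8 and 12.2 CPM in tamoxifen libraries. All vehicle libraries were above all tamoxifen libraries, with vehicle clone4_2 the nearest to tamoxifen clone4_1. The log2 fold change came to -1.45 ± 0.38 (SE; unadjusted p = 0.00351, adjusted p = 0.794, edgeR), from -1.71 to -1.02 over 15 alternatives.

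Tdpoz2, one of a group of two-cell genes with a POZ domain, had 4.57, 4.55 and 4.53 CPM in vehicle and 1.78, 1.55, 2.02 and 2.82 CPM in tamoxifen libraries. The vehicle libraries were nearly equal and above all tamoxifen libraries. The log2 fold change came to -1.15 ± 0.37 (SE; unadjusted p = 0.011, adjusted p = 0.794, edgeR). Its copies share sequence, and 77.9% of its 100-nt and 51.7% of its 50-nt stretches were unique. The groups also did not overlap for Arg2, at 1.90 ± 0.929 CPM in vehicle pools (SD, n = 3) against 0.736 ± 0.37 CPM after tamoxifen (SD, n = 4). Thus 3 of the 21 tested genes were lower without overlap and 0 were higher, where 4.74% of all tested genes were lower and 3.71% higher without overlap.

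The most abundant genes of the list were not called. Whether a gene of the list is limited to the two-cell stage was not tested, so these levels do not measure the two-cell programme. Pramel6, a Prame family gene, had 497 ± 91.2 CPM in vehicle pools (SD, n = 3) against 410.0 ± 58.0 CPM after tamoxifen (SD, n = 4). Eif1ad, which encodes a protein with an initiation factor domain, had 130.0 ± 18.6 and 143 ± 12.7 CPM, and Ddit4l, an inhibitor of mTOR signalling, had 29.2 ± 6.79 and 39.3 ± 6.22 CPM. None of them had an unadjusted p under 0.05 (0.157, 0.411 and 0.0754, edgeR). Pramel6 stayed below 0 in all 15 alternatives (-0.41 to -0.033) and Ddit4l above 0 (0.29 to 0.60). For Ddit4l the unadjusted p was under 0.05 in 1 alternative (0.026, edgeR, without vehicle clone4_1).

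**Figure D4:**
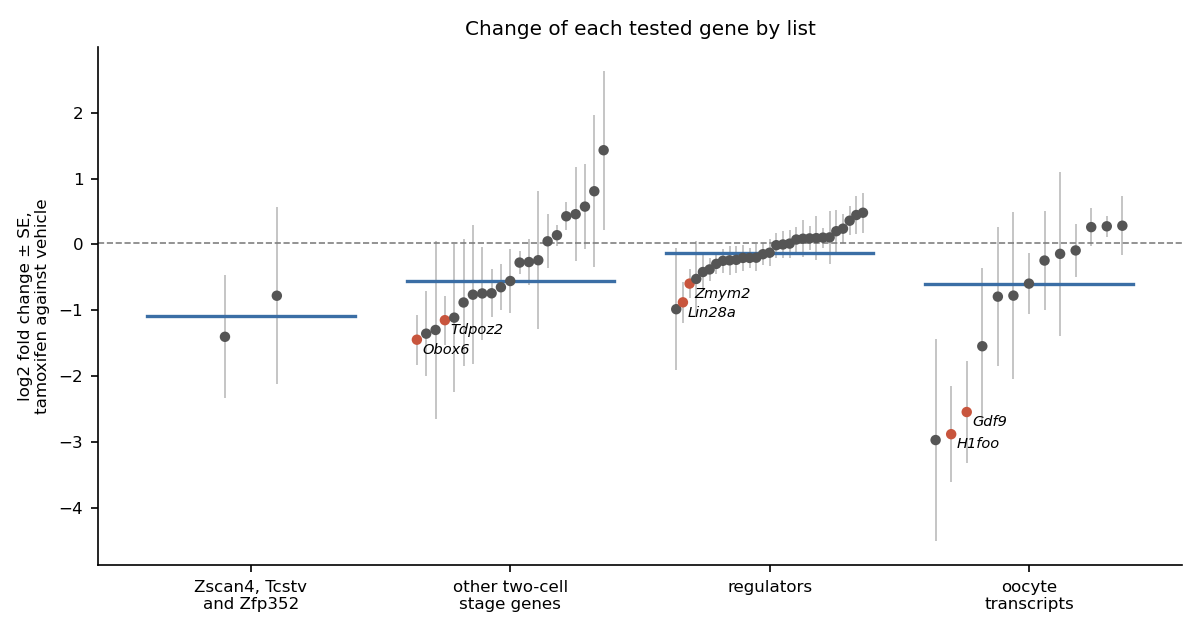
Log2 fold change with its SE (y axis, tamoxifen against vehicle) of each tested gene in 4 lists, with the list's median as a blue line, the median of all tested genes as a dashed line and genes with an unadjusted p under 0.05 in red. The 6 red genes, Obox6, Tdpoz2, Zmym2, Lin28a, Gdf9 and H1foo, all lie below 0, and none passed the adjusted threshold.

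Genes that switch the two-cell programme on or hold it down ranged widely in level, from the germ cell gene Dazl with a mean of 1.71 CPM over the 7 libraries to nucleolin with 1547 CPM. All 29 of this list were tested, 0 were called at an adjusted p under 0.05 by edgeR or by DESeq2, and 2 had an unadjusted p under 0.05, both lower (3.28% of all tested genes were lower at that p). The median log2 fold change was -0.13, against 0.019 for all tested genes. Dppa2, an activator of Dux, was at 1071 ± 265.4 CPM in vehicle pools (SD, n = 3) against 906 ± 193 CPM after tamoxifen (SD, n = 4), in which Duxf3 had 0 counts. Nucleolin (Ncl), which takes part in silencing Dux, was at 1639 ± 312 and 1478 ± 165 CPM, and the zinc finger factor Klf5 at 343 ± 91.7 and 366 ± 160.4 CPM. Their log2 fold changes of -0.24 ± 0.22, -0.15 ± 0.17 and 0.095 ± 0.33 (SE) were within the spread of the libraries, and each changed sign in at least 1 alternative.

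Zmym2, a zinc finger corepressor, had 39.3, 35.1 and 37.0 CPM in vehicle and 25.9, 28.3, 16.4 and 27.7 CPM in tamoxifen libraries, without overlap. Its log2 fold change came to -0.60 ± 0.22 (SE; unadjusted p = 0.0223, adjusted p = 0.794, edgeR). The RNA-binding protein gene Lin28a had 77.4, 43.8 and 49.9 CPM and 34.2, 17.2, 27.7 and 44.8 CPM, with overlapping groups. Its log2 fold change came to -0.88 ± 0.32 (SE; unadjusted p = 0.0192, adjusted p = 0.794, edgeR), and an antisense gene overlaps it by 695 bp. Max and Nr5a2 were also lower without overlap, which makes 3 of 29 genes (background, 4.74%).

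Genes known for their transcripts in the oocyte were also listed; some are transcribed in later embryos too, and newly made RNA cannot be told from stored RNA here. All 21 were in the table with at least 1 count, and 13 were tested, of which 0 were called at an adjusted p under 0.05 by edgeR or by DESeq2. Of these, 2 had an unadjusted p under 0.05 and the same 2, H1foo and Gdf9, did not overlap between groups, all lower (3.28% and 4.74% of all tested genes). The median log2 fold change was -0.60, against 0.019 for all tested genes, and 10 of 13 were below 0, against 48.3%. Genes of the subcortical maternal complex led in level, with Khdc3 at 857 ± 128 and 1036 ± 96.4 CPM, Ooep at 35.3 ± 24.5 and 43.0 ± 7.78 CPM and Tle6 at 11.4 ± 2.65 and 13.7 ± 3.53 CPM (SD, n = 3 and n = 4). Another protein-coding gene overlaps Khdc3 by 1969 bp on the same strand. Of the 100-nt stretches of Khdc3, 71.5% were unique.

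H1foo, the oocyte linker histone, had 43, 116 and 161 counts in vehicle and 32, 6, 3 and 16 counts in tamoxifen libraries, or 1.07, 3.61 and 3.92 CPM and 0.758, 0.259, 0.108 and 0.388 CPM. All vehicle libraries were above all tamoxifen libraries. The log2 fold change came to -2.88 ± 0.73 (SE; unadjusted p = 0.00276, adjusted p = 0.794, edgeR), and the adjusted p ranged from 0.0971 to 0.961 over 15 alternatives.

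Gdf9, an oocyte growth factor, had 36, 92 and 148 counts in vehicle and 12, 19, 14 and 4 counts in tamoxifen libraries. Its CPM values of 0.893, 2.87 and 3.61 and of 0.284, 0.819, 0.506 and 0.0971 did not overlap, with vehicle clone4_1 close to tamoxifen clone4_2. The log2 fold change came to -2.55 ± 0.77 (SE; unadjusted p = 0.00813, adjusted p = 0.794, edgeR). The partner of Gdf9, Bmp15, did not pass the filter and had 9, 27 and 39 counts in vehicle and 2, 0, 0 and 2 counts in tamoxifen libraries. Trophectoderm markers had 10 of 10 log2 fold changes below 0, a median of -0.33 and the summed levels given above, with 3 of 10 lower at an unadjusted p under 0.05 (48.3% and 3.28% of all tested genes). Of 9 tested primitive endoderm markers, 2 were higher at that p and without overlap, Sox17 and Lama1 (2.69% and 3.71% of all tested genes), and the median was 0.49. Sox17 had 0.298, 4.24 and 4.34 CPM in vehicle and 17.0, 7.8, 27.1 and 18.9 CPM in tamoxifen libraries, and the summed level of the list was carried by Dab2, at 743 ± 94.2 and 644 ± 77.5 CPM. Of 9 tested naive epiblast markers, 7 had a log2 fold change above 0, and the median was 0.37. Among them 1 was higher at an unadjusted p under 0.05 (2.69% of all tested genes, edgeR). The part of any of the marker lists in the values above was not tested.

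**Figure D5:**
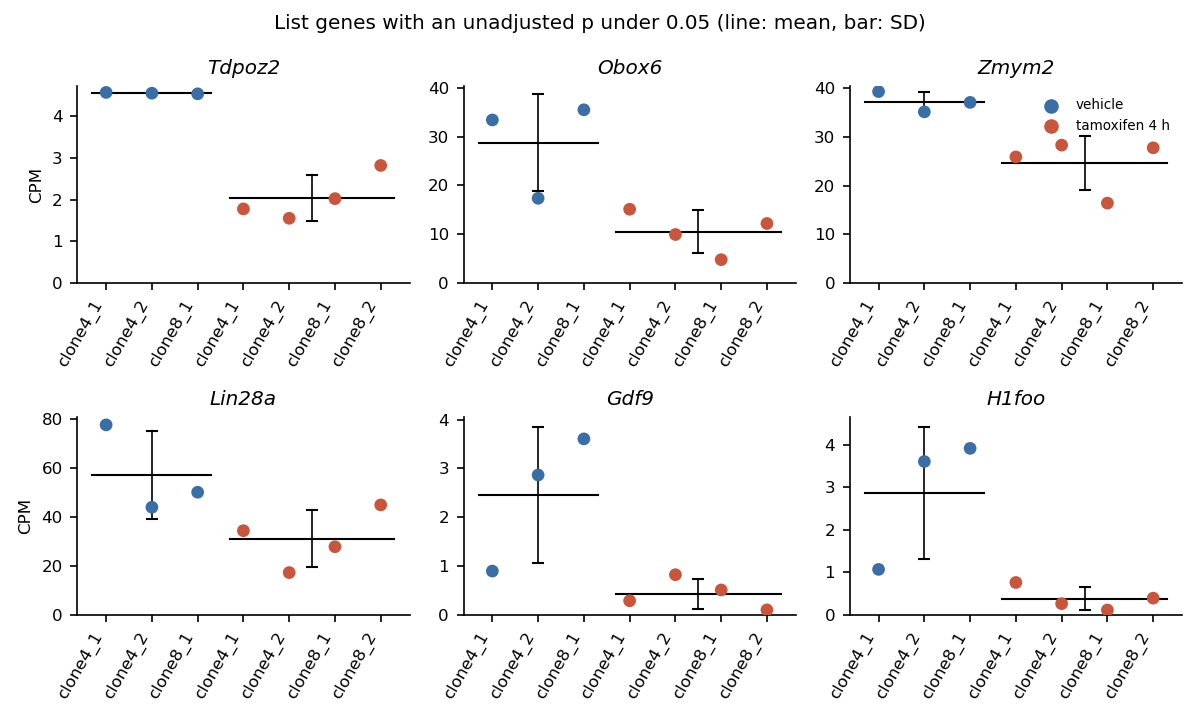
CPM (y axis) of the 6 list genes with an unadjusted p under 0.05 in the 3 vehicle (blue) and 4 tamoxifen (red) libraries, with the group mean as a line and the SD as a bar. The groups are apart for Tdpoz2, Obox6, Zmym2, Gdf9 and H1foo and overlap for Lin28a.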

How the data were processed

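The deposited table holds raw counts per Ensembl gene, 1 column per library, per the file headers, and it was not normalised. bcl2fastq 2.19.1, STAR 2.5.3a and the build mm10 are named in the submitters' processing notes. The counting program, annotation release, strand setting, read length and handling of duplicate or multiply mapping reads are not given in the sources used here. A low-input kit was used on 2 ng of RNA per library, per the labels' protocols, and its reads carry no stated molecular identifiers.

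Symbols, coordinates and transcripts are from GENCODE M21 (GRCm38), in which 52489 of 52636 IDs matched. The test was that of edgeR 4.0.16 under R 4.3.3 (TMM factors, filterByExpr by group, quasi-likelihood test, condition as the only term, Benjamini-Hochberg adjustment over 16248 genes). The SE is the log2 fold change divided by the square root of F. CPM uses the TMM library sizes. Unique stretches were counted against all transcripts on the chromosomes, both strands. The code was tested on simulated data.

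Alternatives were DESeq2 1.42.0, RLE factors, other filters, clone or a replicate block in the model, summed copies and fewer libraries. All members are named. From the lists (other Zscan4 cluster genes, other two-cell stage genes, their regulators, oocyte transcripts), genes with an unadjusted p under 0.05 and the 3 most abundant are named, and for each tested member the 3 genes with the highest Pearson r of log2 CPM (prior count 2). Duxf3, Arg2, Max, Nr5a2, Bmp15, Dazl, Sox17, Lama1, Dab2, Krt8 and Krt18 were picked after their values were seen. The members and lists were chosen with earlier results of these data known.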

Additional observations from a re-analysis of the deposited data

Results flagged for a closer look

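Zscan4d was at 0.194 CPM in tamoxifen clone8_2, far from the other 3 tamoxifen libraries, which were at 0.0237, 0 and 0 CPM. The value rests on 8 counts. Zscan4f was at 0.0431 CPM in tamoxifen clone4_2 and at 0 in the other tamoxifen libraries, which is 1 count and under the limit of 3. These were 2 of 19 genes examined in this way. The rule flags about 1 in 20 groups of 4 by chance, but that rate does not apply to counts this close to 0. No conclusion is drawn from the 2 flags.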

How the results depend on the processing

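Tcstv3 kept a negative log2 fold change and an adjusted p above 0.05 in all 15 alternatives that gave a value (-1.97 to -0.66). The fit with both Tcstv genes summed is among the alternatives of either gene. Tcstv1 was reversed with clone in the model (0.22), with the replicate block (0.64) and without vehicle clone4_2 (0.79), and ranged from -1.36 to 0.79 when single libraries were left out. The clone names and numbers of the titles were used for the block. Same-named libraries share a clone, but they did not deviate together (r = 0.00775, 0.0206 and -0.0683 over log2 CPM). These values do not show whether such libraries were paired in any other way. No library correlated best with its namesake. The block gave -0.83 for Tcstv3, and 0 genes were called with it, as without it. Among all tested genes, 0 were called, 4 with DESeq2 and 2 without both clone8_1 libraries, and 0 of these were two-cell stage genes, regulators or oocyte transcripts of the lists. Adding the other genes of the cluster moved the vehicle mean of the Zscan4 sum from 0.00812 to 0.082 CPM. Signs were reversed for Eif1ad within clone 4 (-0.029), for Ncl without both clone8_1 libraries (0.049) and for Dppa2 within clone 4 (0.021) and without both clone8_1 libraries (0.061). For Klf5 they were reversed with clone in the model (-0.093), with the replicate block (-0.23), within clone 4 (-0.75) and without both clone8_1 libraries (-0.19). With single libraries left out, Klf5 ranged from -0.19 to 0.27. Ooep was reversed within clone 4 (-0.30) and without both clone8_1 libraries (-0.29), and ranged from -0.17 to 0.87 over the single left-out libraries. The cause was not tested in any of these. With a mean count of at least 50 neither Tcstv gene was tested, and the summed Zscan4 genes did not pass the filter. Depth sets an upper bound for Zfp352, and for Zscan4c and Zscan4f shared sequence limits the reading as well.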

Other observations

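The genes around the Tcstv pair were also low. The interval from Tcstv1 to Tcstv3 on chromosome 13 (119893388 to 120318178) holds 23 annotated genes, of which 11 had 0 counts in all libraries and 6 were tested. The pseudogene Gm20900 had the highest total (206 counts), above Tcstv3 (189) and Tcstv1 (129), and Gm20767 (74) and B020031M17Rik (71) came next. Gm20900 had 30, 21 and 11 counts in vehicle and 44, 20, 37 and 43 counts in tamoxifen libraries, a log2 fold change of 0.95 ± 0.64 (SE; adjusted p = 0.803, edgeR). B020031M17Rik had 13, 21 and 4 counts in vehicle and 17, 1, 13 and 2 counts in tamoxifen libraries. Vehicle clone8_1 held the lowest vehicle count of Gm20900 and B020031M17Rik but the highest of Gm20767, which had 11, 13 and 26 counts in vehicle and 0, 10, 4 and 10 in tamoxifen libraries.

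The Zscan4 cluster on chromosome 7 (10794242 to 11614112) holds 53 annotated genes, of which 37 had 0 counts in all libraries. Only 2 were tested, both pseudogenes that do not carry a Zscan4 name. Whether their sequence is related to Zscan4 was not tested. Gm7789 had 26, 30 and 5 counts in vehicle and 38, 17, 64 and 0 counts in tamoxifen libraries, and Gm45598 had 11, 9 and 15 and then 2, 13, 16 and 6. Their totals of 180 and 72 counts made up most of the 338 counts of the interval, and the 9 Zscan4 genes had 21. These genes were chosen after their values were seen.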
